A study of Arabidopsis thaliana with 20 samples.

Results

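The genes that supply the light reactions and carbon fixation of the leaf, 45 nuclear loci, were looked up in 6 deposited lists of peaks. The peaks were called after immunoprecipitation of the heat shock factor HSFA1d from Arabidopsis thaliana seedlings. They were listed by locus identifier and not by a cut on measured values, but with earlier results of these data known. The list held 6 LHCA genes and 15 LHCB genes for light harvesting proteins, 11 PSA genes and 8 PSB genes for subunits of photosystem I and photosystem II, 4 RBCS genes for the small subunit of Rubisco, and RCA for Rubisco activase. They make up 45 of the 27444 nuclear protein-coding genes that serve as the comparison. A gene was counted as having a peak when any row of a list named the gene itself (a gene row) or the stretch before it that the authors annotated as its promoter (a promoter row, up to 3001 bp wide).

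Light harvesting proteins hold chlorophyll in the thylakoid membrane and pass absorbed light to the photosystems. Photosystem II takes electrons from water, photosystem I passes them to ferredoxin, and Rubisco fixes carbon dioxide. Many of the nuclear genes for these proteins are among the most heavily transcribed genes of green tissue, and light is their best known regulator. HSFA1d belongs to the class A1 heat shock factors, which in heat switch on genes for chaperones through heat shock elements in promoters. The 45 genes are not among the textbook targets of this factor.

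Chromatin came from whole seedlings, 2 weeks old, of mixed Col-0 and Ws background, grown at 22 °C in constant light, that expressed an HSFA1d-GFP fusion from the HSFA1d promoter. Anti-GFP antibody pulled down the fusion from about 60 seedlings per sample, and every group carried it, so a peak at time 0 is not a peak in plants free of the fusion. In the heat series, untreated seedlings (HT0, time 0) stood against seedlings kept for 30 min at 37 °C (HS), with 3 ChIP and 3 input samples each. The wounding series had its own untreated seedlings (WT0, time 0) and seedlings cut with a razor blade and sampled 10 min later (W10min), 3 h later (W3h) or 24 h later (W24h), with 1 ChIP and 1 input sample each. Reads were concatenated, so each condition has 1 list, none of the values has a replicate spread, and no difference between lists was tested. Whole seedlings were used, so peaks from different cell types cannot be told apart. The lists held 1336 (HT0), 2103 (HS), 1483 (WT0), 1445 (W10min), 626 (W3h) and 509 (W24h) peaks. Each library had at least 10 M mapped reads per the labels, and depth is otherwise unknown.

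The 45 genes appeared in the heat lists at about the share of any coding gene, and in all 4 wounding lists, the untreated one included, at several times that share. In HT0, 1 of 45 genes (2.22%) had a peak, against 3.11% of all coding genes. In HS it was 4 of 45 (8.89%), against 7.82%. Both shares lay near the background. In WT0, 33 of 45 genes (73.3%) had a peak, against 7.1% of all coding genes. W10min held 24 (53.3% against 7.1%), W3h 23 (51.1% against 2.55%) and W24h 22 (48.9% against 1.46%). The share of coding genes with a peak was smaller in W3h and W24h than in WT0, while the share of the 45 genes lay between 48.9% and 53.3% from W10min to W24h.

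HT0 and WT0 are both labelled as untreated, yet most of these genes had a peak in 1 of them alone. Of the 45 genes, 32 had a peak in WT0 alone, 1 (LHCB6) in both, and 0 in HT0 alone. Over all coding genes, 1513 had a peak in WT0 alone, 435 in both and 418 in HT0 alone. The 2 series differ in the number of ChIP samples behind a list, and whether they differ in other steps is not given in the sources used here, so treatment, series and sample number cannot be told apart between heat and wounding lists. Within the wounding series the high share was present before any cut.

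**Figure D1:**
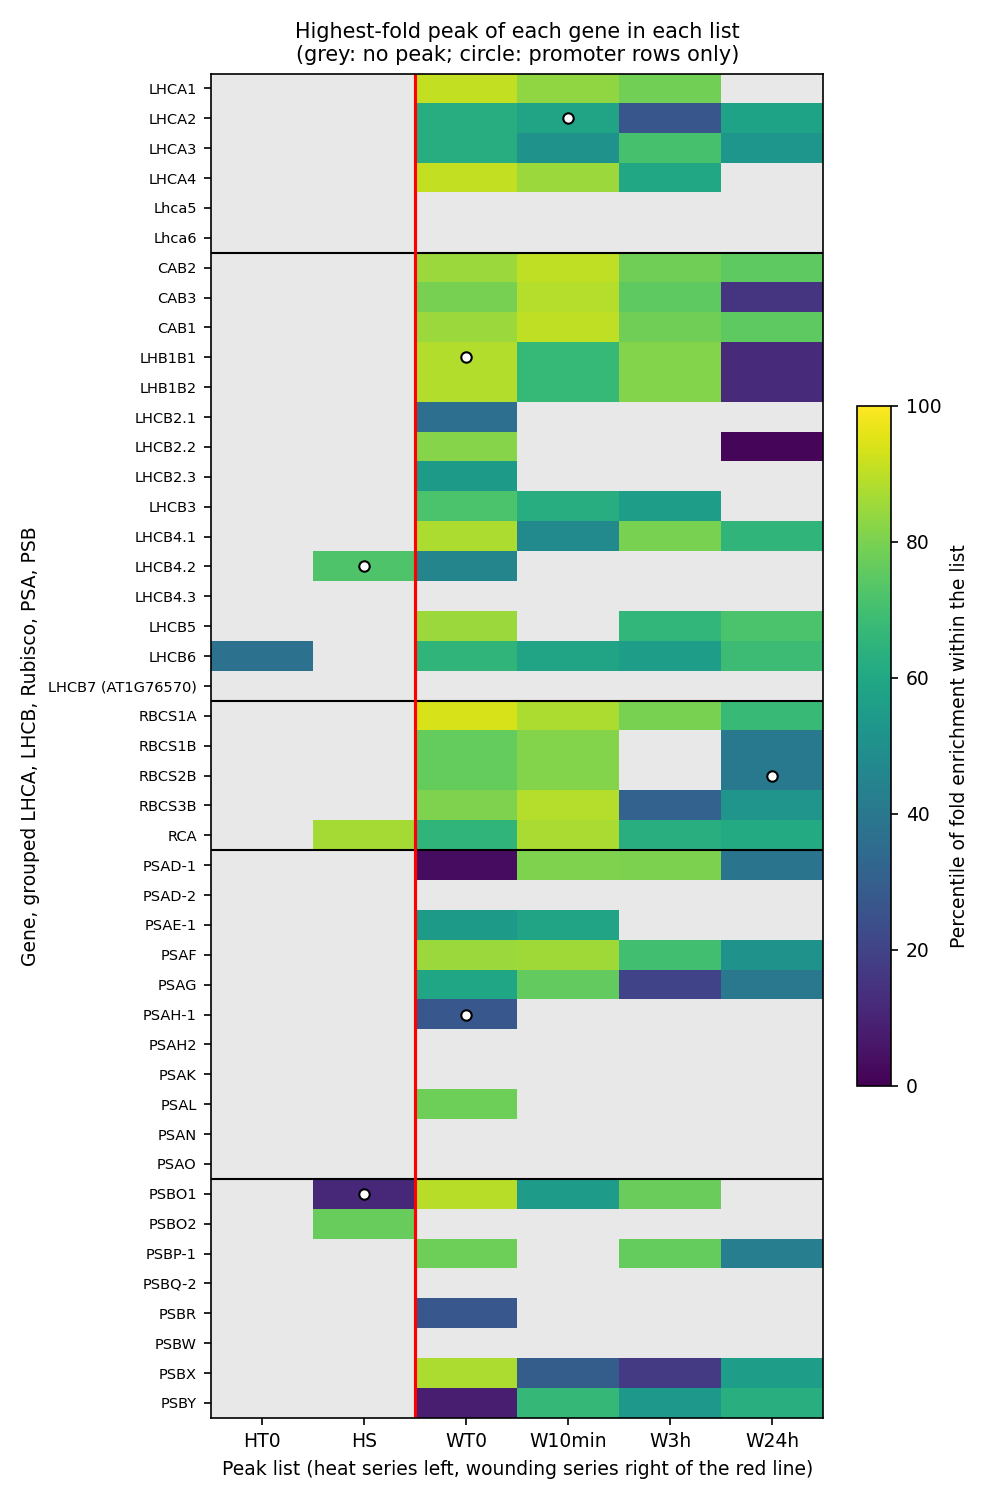
Each row is 1 of the 45 genes, grouped from top to bottom as LHCA, LHCB, Rubisco with RCA, PSA and PSB, and each column is 1 peak list; colour gives the percentile of the fold enrichment of the gene's highest peak within that list (100 is the highest fold), grey means no peak, and a white circle marks genes with promoter rows only. The heat columns are grey but for 1 gene in HT0 and 4 in HS, and the WT0 column is filled for 33 of 45 genes.

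All 5 complexes contributed to the wounding lists. The Rubisco group, 4 RBCS genes and RCA, had a peak for 5 of 5 genes in WT0, W10min and W24h and for 3 of 5 in W3h. Of the 15 LHCB genes, 13 had a peak in WT0, 8 at 10 min, 9 at 3 h and 9 at 24 h. Of the 6 LHCA genes, 4 had a peak in WT0, W10min and W3h and 2 in W24h. The photosystem subunits had a peak for 6, 4, 3 and 3 of 11 PSA genes and 5, 3, 4 and 3 of 8 PSB genes from WT0 to W24h. In HS, the 4 genes were 1 LHCB gene, RCA and 2 PSB genes, and the gene in HT0 was LHCB6.

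Over the 6 lists, 34 of the 45 genes had at least 1 peak and 11 had none. Those without one were Lhca5 and Lhca6 (which link photosystem I to the chloroplast NADH dehydrogenase-like complex), LHCB4.3, LHCB7 (AT1G76570), PSAD-2, PSAH2, PSAK, PSAN, PSAO, PSBQ-2 and PSBW. None of the 45 genes had a peak in all 6 lists. A peak in 5 lists was found for LHCB6 and RCA, in 4 lists for 16 genes, in 3 lists for 7, in 2 lists for 3 and in 1 list for 6. PSBO2 was the gene with a peak in HS alone. Members of 1 family differed: PSAD-1 had a peak in all 4 wounding lists and PSAD-2 in none, and LHCB4.1, LHCB4.2 and LHCB4.3 had one in 4, 1 and 0 wounding lists.

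Many listed peaks are weak. Each has a q, the false discovery rate that the authors' caller attached to it. At a q of at most 0.05 the wounding lists held 27 (WT0), 23 (W10min), 21 (W3h) and 13 (W24h) of the 45 genes, against 3.69%, 4%, 1.53% and 0.802% of all coding genes. HS held 3, against 4.66%, and HT0 held 0, against 1.42%. At a q of at most 1e-05 the counts were 0, 1, 7, 9, 10 and 3 in the order HT0, HS, WT0, W10min, W3h and W24h, against 0.561%, 2.38%, 0.649%, 1.18%, 0.598% and 0.361% of all coding genes. With every list reduced to its 509 peaks of highest fold, the counts were 0, 2, 20, 16, 22 and 22, against 1.12%, 2.96%, 2.52%, 2.62%, 2.16% and 1.46%.

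The peaks of these genes lay mostly inside the gene. Other coding genes met their peaks mostly through the promoter, and the 45 genes through the body of the gene. Gene rows were also common in the lists of related photosynthesis genes given further below, so they are not particular to the 45 genes. Each pair of a gene and a peak was classed by its rows as promoter only, gene only or both. In WT0, 39 of 59 pairs of the 45 genes (66.1%) were gene only, against 12.1% of 2133 pairs of other coding genes. In W10min 73% of 37 pairs were gene only, against 12.7%. For W3h this was 85.3% of 34, against 12.5%, and for W24h 76.7% of 30, against 19.9%. In HS 0 of 5 pairs were gene only, against 16.7% of 2756 pairs, and the single pair in HT0 was of the class both.

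Counted by gene, a peak with a gene row was found for 31 (WT0), 23 (W10min), 23 (W3h) and 21 (W24h) of the 45 genes. All coding genes had one in 2.38%, 2.48%, 1.05% and 0.714% of cases. In HS it was 2 of 45 (PSBO2 and RCA) against 3.02%, and in HT0 1 of 45 against 0.798%. Put as a share of the genes with any peak, 93.9%, 95.8%, 100% and 95.5% of the genes from these complexes had a gene row in WT0, W10min, W3h and W24h, against 33.6%, 34.9%, 41.1% and 48.8% of all coding genes with a peak.

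Several promoter rows of these genes belong to peaks inside a neighbouring family member. In WT0, 7 of 10 promoter-only pairs were peaks that also had a gene row of another of the 45 genes, as were 7 of 8 at 10 min, 5 of 5 at 3 h and 6 of 7 at 24 h. They came from the tandem LHCB1 genes CAB1, CAB2 and CAB3, the neighbours LHB1B1 and LHB1B2, and the tandem RBCS genes RBCS1B, RBCS2B and RBCS3B. Such neighbours share 1 peak and are not separate observations. These families also hold closely related copies, and reads of 50 bases may not place uniquely among them, so which copy gave rise to a peak is uncertain.

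**Figure D2:**
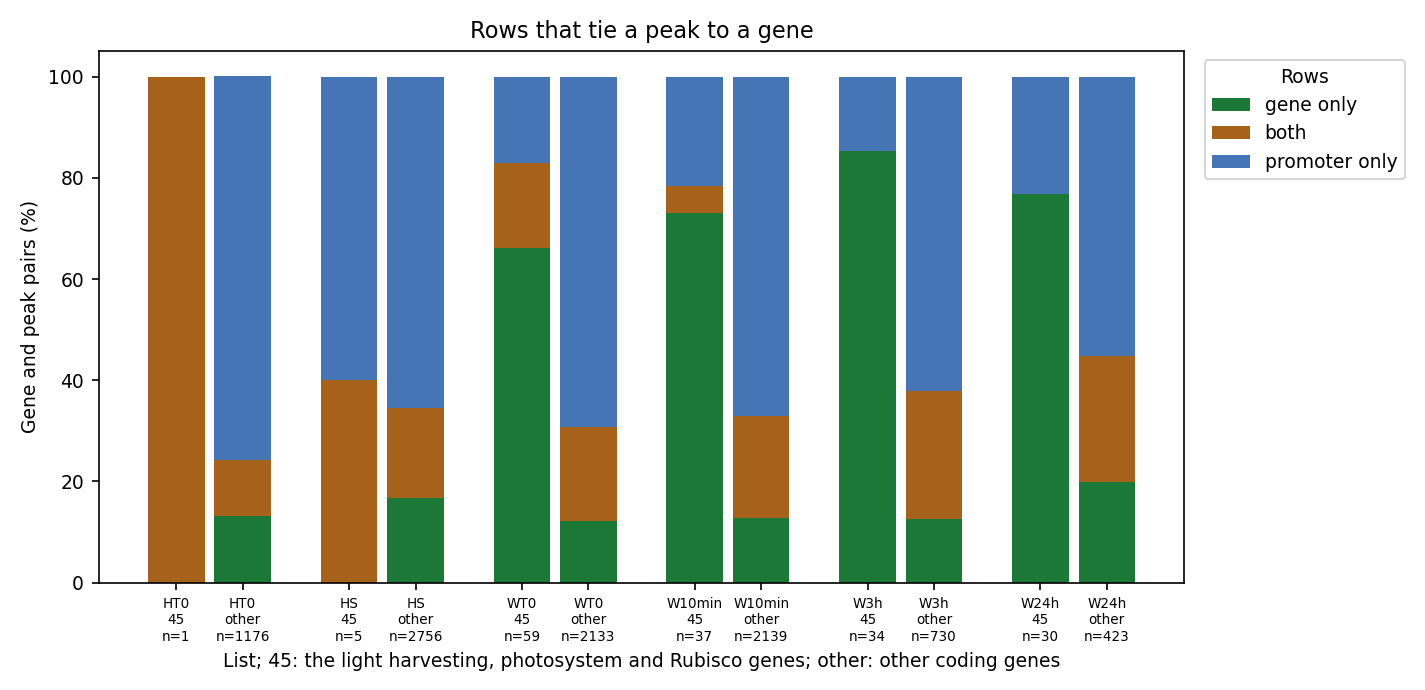
Bars show, for each list, the percentage of pairs of a gene and a peak that rest on gene rows only, on promoter rows only or on both, for the 45 genes and for other coding genes, with the number of pairs under each bar. Gene-only pairs make up 66.1% to 85.3% for the 45 genes in the wounding lists and 12.1% to 19.9% for other coding genes there.

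The position relative to the gene start could be read from the lists themselves for 14 of the 45 genes, those for which a promoter row and a gene row meet. In the wounding lists these genes had 76 pairs: 12 peaks covered the start, 53 lay downstream of it and 11 upstream, with a median midpoint 610 bp into the gene. By list, from WT0 to W24h, the median was 503, 394, 866 and 549 bp. In the heat lists there were 4 pairs, 3 over the start and 1 upstream, with a median midpoint at -66 bp. Those 3 are the peaks that made the starts of LHCB6, RCA and PSBO2 readable, so their place over the start was set by that rule. The HS peaks of LHCB4.2 and PSBO1, with promoter rows only, are left out because these starts were not readable. Positions in heat and wounding lists therefore cannot be compared here. A gene whose start the lists show has a peak at that start in some list, so the 14 genes are not a random part of the 45.

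RCA had its heat and wounding peaks at different places. Its product, Rubisco activase, removes inhibitory sugar phosphates from Rubisco and is itself known to be heat-sensitive. In HS it had a peak upstream of its start at chromosome 2, 16573743 to 16573985, enriched 2.51-fold at a q of 2.4e-06, and a weaker one over the start (16573494 to 16573644, 1.62-fold, q 0.35). Both were also annotated to the promoter of HESO1, the neighbour on the other strand. In the wounding lists all peaks of RCA lay inside the gene, between 846 and 2730 bp from the start by their midpoints. Each of these peaks was also annotated to a neighbour, RHC2A or HESO1. The highest had folds of 1.94, 2.84, 1.95 and 1.97 from WT0 to W24h, and q values of 0.00188, 1.19e-07, 0.00169 and 0.0198. HS peaks and wounding peaks of RCA did not overlap.

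**Figure D3:**
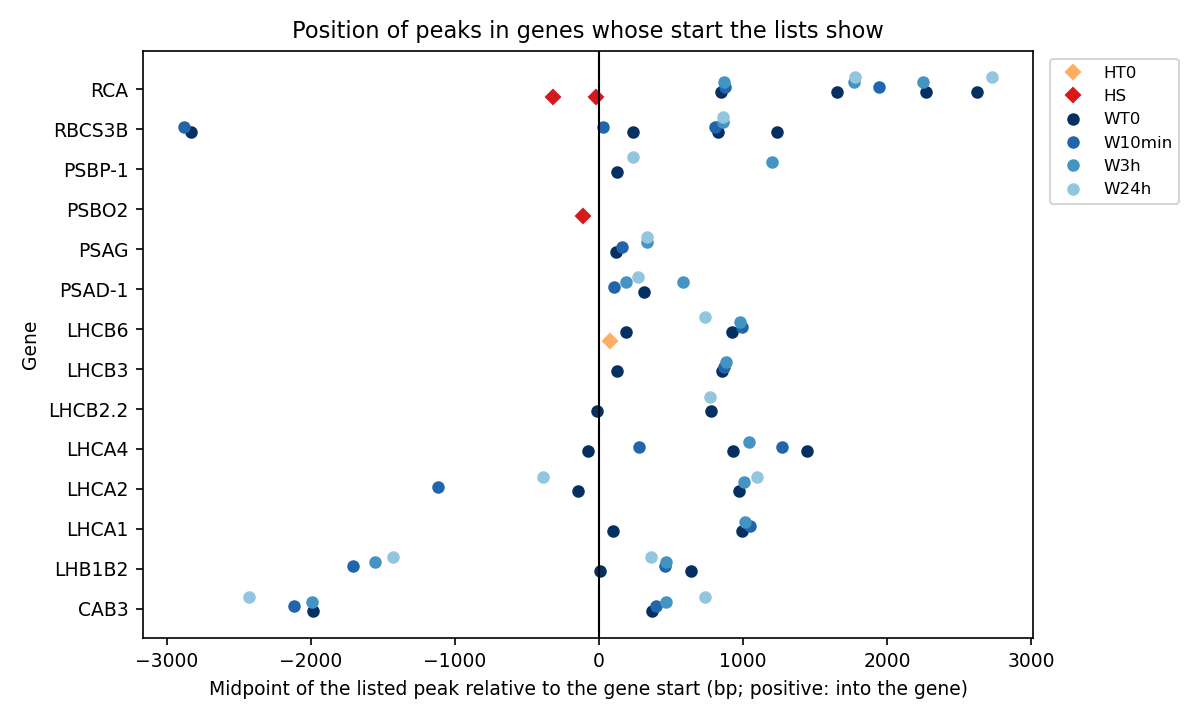
Points give the midpoint of each listed peak relative to the gene start in bp, positive into the gene, for the 14 genes whose start the lists show; diamonds are the heat lists and circles the wounding lists. The wounding points lie mostly to the right of the start, with a median of 610 bp, and the heat points close to it. Of the 4 heat points, 3 are the peaks that made the start of their gene readable, so their closeness was set by that rule.

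The Rubisco small subunit genes held the highest peak of the group in WT0. RBCS1A (AT1G67090), the main small subunit gene of leaves, had a peak enriched 3.03-fold (q 8.25e-13) on chromosome 1 from 25048890 to 25049263, the 91st highest of 1483. Its highest fold at 10 min was 2.87 (q 7.3e-11), at 3 h 2.40 (q 1.26e-08) and at 24 h 2.08 (q 7.71e-10), always with gene rows only, and it had no peak in HT0 or HS. It therefore lay at a q of at most 1e-05 in all 4 wounding lists. Each RBCS1A peak was also annotated to ABA4. RBCS3B (AT5G38410) had highest folds of 2.18, 3.08, 1.65 and 1.86 in WT0, W10min, W3h and W24h, with q values of 0.000851, 3.83e-10, 0.0281 and 0.00398. RBCS1B and RBCS2B shared a peak of 2.11-fold in WT0 and 2.43-fold in W10min, had none in W3h and shared one of 1.77-fold in W24h with a q of 0.0991.

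Among the LHCB1 genes, whose products form most of the mobile antenna of photosystem II, CAB1 (AT1G29930) carried the highest peak of the group in W10min and W24h. It lay inside the gene, in W10min on chromosome 1 from 10478044 to 10478927, and was enriched 3.29-fold at a q of 1.79e-21. CAB2 (AT1G29920) shares that peak through its promoter row. At this peak the other wounding lists WT0, W3h and W24h had 2.30-fold, 2.30-fold and 2.29-fold, with q values of 3.2e-10, 5.25e-13 and 2e-09. It was thus present in every wounding list at a q below 1e-05, and absent from HT0 and HS. The gene row of CAB2 itself came from a lower peak, 1.76-fold (WT0), 2.09-fold (W10min), 2.16-fold (W3h) and 1.49-fold (W24h, where q was 1). CAB3 (AT1G29910) had highest folds of 2.14, 3.07, 2.16 and 1.54, the last with a q of 0.833. LHB1B1 (AT2G34430) and LHB1B2 (AT2G34420) shared the highest peak of the group in W3h, 2.47-fold with a q of 1.92e-09, inside LHB1B2 at chromosome 2, 14522660 to 14523546. Their shared peaks had 2.39-fold in WT0, 2.15-fold in W10min and 1.51-fold in W24h (q 0.36).

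The LHCB2 genes, which code for the other large share of the same antenna, were found at time 0 of the wounding series and mostly not after it. LHCB2.1, LHCB2.2 and LHCB2.3 had folds of 1.76, 2.19 and 1.88 in WT0 and no peak in W10min or W3h; LHCB2.2 had one of 1.35-fold with a q of 1 in W24h. The minor antenna proteins CP29, CP26 and CP24 sit between the large antenna and the reaction centre. Of their genes, LHCB4.1 (AT5G01530) had folds of 2.37, 1.95, 2.41 and 2.04 over the 4 wounding lists, with q values of 5.57e-05, 0.0273, 9.41e-07 and 0.00897. Its highest peak in WT0 was a promoter row shared with AIRP2, and 2 others lay in the gene at 2.12-fold and 2.07-fold. LHCB5 had 2.28-fold in WT0, 1.99-fold in W3h and 2.16-fold in W24h and no peak in W10min. LHCB6 (AT1G15820) was the gene present in HT0, 1.57-fold over its start with a q of 0.262, and had folds of 1.99, 2.03, 1.87 and 2.10 in the wounding lists, q 0.00403, 0.0145, 0.00941 and 0.00167. Each LHCB6 peak was also annotated to AT1G15830.

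In the antenna of photosystem I, 4 of the 6 genes had a peak, all of them in the wounding lists. LHCA1 had 2.55-fold, 2.54-fold and 2.34-fold in WT0, W10min and W3h, and LHCA4, its partner in the antenna dimer, 2.50-fold, 2.67-fold and 1.94-fold, and neither had a peak in W24h. LHCA3 (AT1G61520) had 1.94-fold, 1.96-fold, 2.09-fold and 1.87-fold in the 4 wounding lists, with q values of 0.0218, 0.0319, 0.000306 and 0.0253. Each peak of LHCA3 was also annotated to AT1G61540, and each of LHCA1 to AT3G54880. LHCA2 (AT3G61470) had 1.94-fold, 2.03-fold, 1.64-fold and 1.94-fold, q 0.0218, 0.0145, 0.0376 and 0.002, and in W10min that peak was in the promoter alone and also annotated to BRH1.

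Of the 11 photosystem I genes, PSAD-1, PSAF and PSAG had a peak in all 4 wounding lists, and PSAD-2, PSAH2, PSAK, PSAN and PSAO in none. PSAD-1 (AT4G02770), at the ferredoxin side, was weak in WT0 at 1.49-fold (q 0.864). After wounding it had 2.38-fold at 10 min (q 1.93e-05), 2.43-fold at 3 h (q 1.52e-07) and 1.74-fold at 24 h (q 0.198). Each PSAD-1 peak was also annotated to AT4G02760. PSAF (AT1G31330), at the plastocyanin side, had 2.29-fold, 2.70-fold, 2.06-fold and 1.85-fold, with q values of 0.000123, 1.09e-06, 0.000874 and 0.0522. PSAG (AT1G55670), which anchors the antenna, had 1.93-fold, 2.28-fold, 1.57-fold and 1.76-fold, with q values of 0.00397, 0.000132, 0.276 and 0.0303. None of these 3 genes had a peak in a heat list. PSAE-1 had a peak in WT0 and W10min, and PSAL and PSAH-1, on the side where the mobile antenna binds, in WT0 alone.

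In photosystem II, PSBO1 (AT5G66570), for the protein that stabilises the manganese cluster of water oxidation, had 2.43-fold in WT0 (q 2.14e-05), 2.00-fold in W10min (q 0.00206), 2.23-fold in W3h (q 1.89e-06) and no peak in W24h. The small membrane subunits PSBX (AT2G06520) and PSBY (AT1G67740) had a peak in every wounding list. PSBX had 2.37-fold, 1.79-fold, 1.55-fold and 1.91-fold, of which the values in W10min and W3h had a q of 0.174 and 0.911. PSBY had 1.56-fold with a q of 0.574 in WT0, then 2.10-fold, 1.85-fold and 1.98-fold with q values of 0.00315, 0.024 and 0.00577. PSBP-1 had a peak in WT0, W3h and W24h, and PSBR in WT0 alone.

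After heat, few of the 45 genes gained a peak. Of the 44 without a peak in HT0, 4 (9.09%) had one in HS, near the background of 6.21% of all coding genes without one in HT0. They were RCA at 2.51-fold, PSBO2 (AT3G50820), the second gene for the manganese-stabilising protein, at 2.11-fold with a q of 0.00048, LHCB4.2 (AT3G08940) at 2.01-fold with a q of 0.00206, and PSBO1 at 1.47-fold with a q of 1. The peak of PSBO2 ran over its start, at chromosome 3, 18892316 to 18892758, and was also in the annotated promoter of AT3G50810. The LHCB4.2 peak was in the promoter, at chromosome 3, 2717018 to 2717456, and overlapped the end of the gene AT3G08930. LHCB6 was lost from HT0 to HS, as were 42.2% of coding genes with a peak in HT0. If a peak in WT0 also counts against a gain, PSBO2 remained as the 1 gained gene. For scale, all 15 of a set of known heat shock genes had a peak in HS, led by HSFA2 at 5.60-fold and HSP70 at 5.55-fold, and the same set had 1, 4, 10, 7 and 2 in HT0, WT0, W10min, W3h and W24h.

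After wounding, none of the 45 genes gained a peak when all listed peaks were counted. Of the 12 without a peak in WT0, 0 had one in W10min, W3h or W24h, against 4.55%, 1.14% and 0.588% of all coding genes without a peak in WT0. No test was run on these counts. Of the 33 with a peak in WT0, 9 (27.3%) had none at 10 min, 10 (30.3%) none at 3 h and 11 (33.3%) none at 24 h. Over all coding genes with a peak in WT0 the shares were 59.5%, 79% and 87.1%. The 9 without a peak in W10min were the 3 LHCB2 genes, LHCB4.2, LHCB5, PSAH-1, PSAL, PSBP-1 and PSBR. Counting peaks with a q of at most 0.05 alone, PSAD-1 and PSBY, both weak in WT0, were gained in W10min and in W3h, and PSBY in W24h.

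Peaks of these genes lay at like places in the wounding lists. Of the peaks that touch the 45 genes, 27 of 30 at 10 min (90%), 27 of 29 at 3 h (93.1%) and 22 of 24 at 24 h (91.7%) overlapped a WT0 peak by at least 1 bp. For peaks of other coding genes the shares were 33.2%, 52.5% and 52.6%. No wounding peak of the 45 genes overlapped an HS peak, where 26.3% (WT0), 36.2% (W10min), 55.2% (W3h) and 52.2% (W24h) of peaks of other coding genes did. Only 4 of the 45 genes had a peak in HS, so most of their wounding peaks had none there to overlap. None of the 5 HS peaks overlapped a peak of any other list. Of HS peaks of other coding genes, 24.8%, 27.1%, 33.7%, 20.7% and 14.1% overlapped one in HT0, WT0, W10min, W3h and W24h. With 5 peaks, 0 is not far from those shares. The 1 HT0 peak, at LHCB6, overlapped a WT0 peak, as did 46% of HT0 peaks of other coding genes.

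Few other coding genes had the same combination. The combination of a gene-row peak in all 4 wounding lists and no heat peak was chosen after the data were seen. The number of the 45 genes in it therefore describes their pattern and is not separate evidence for it. A peak in all 4 wounding lists was found for 180 coding genes (0.656%), of which 17 were among the 45. A peak with a gene row in all 4 wounding lists and no peak in either heat list was found for 17 coding genes (0.0619%), of which 13 were among the 45: LHCA3, CAB1, CAB2, CAB3, LHB1B2, LHCB4.1, RBCS1A, RBCS3B, PSAD-1, PSAF, PSAG, PSBX and PSBY. Counting only peaks with a q of at most 0.05, 7 coding genes had the combination and 6 of them were among the 45, LHCB6 with 5 of the 13 (CAB1, LHCA3, RBCS1A, LHCB4.1 and RBCS3B). At a q of at most 1e-05 it was 2 of 2, CAB1 and RBCS1A, and with peaks annotated to a single gene 7 of 9. The 4 other genes were DRT112 (AT1G20340), which codes for plastocyanin, EXT4, PRXR1 and CYP81G1, named after their values were seen. Without the condition on the heat lists, 104 coding genes had a gene-row peak in all 4 wounding lists, 15 of them among the 45 and 65 at loci numbered AT2G07 to AT2G08.

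In rank the peaks were spread over each wounding list, from near its bottom to below its highest peaks. Fold enrichment ranks peaks only within its list, so each was given a percentile there. From WT0 to W24h the median percentile for the 45 genes was 65.4, 68.1, 66.1 and 47.1, against 45.5, 50.8, 53.2 and 49.8 for all peaks at coding genes. The lowest of their peaks in those lists stood at percentiles of 3.34, 1.32, 2.24 and 1.77, and the highest at 93.9, 90.5, 81.3 and 75.1. In the same order, 15.4%, 30%, 31% and 8.33% of them had a q of at most 1e-05, against 8.66%, 15.5%, 22.1% and 22.7% of all peaks at coding genes. For the 5 peaks of HS the median was 72.4, against 54.9, and the HT0 peak stood at 37.1, against 52.1. The highest fold of the group was 3.03 in WT0, where the list reached 5.22. From W10min to W24h it was 3.29, 2.47 and 2.29, in lists that reached 8.30, 5.19 and 5.15. Peaks of these genes had a median width of 309, 296, 266 and 244 bp in the 4 wounding lists, against 218, 233, 238 and 229 bp.

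**Figure D4:**
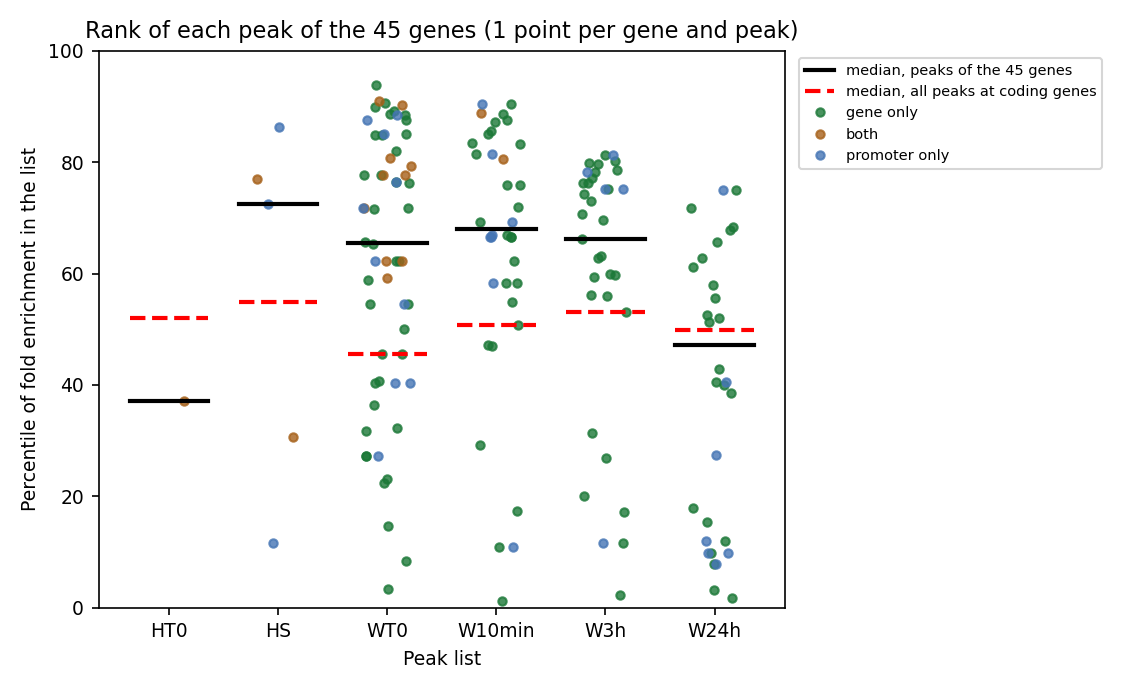
Each point is 1 pair of a gene and a peak for the 45 genes, placed by the percentile of its fold enrichment within its list and coloured by the rows that tie it to the gene; the black line is the median over peaks of the 45 genes and the dashed red line the median over all peaks at coding genes. The black line lies above the red one in HS, WT0, W10min and W3h, and no point exceeds a percentile of 93.9.

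Peaks that lie wholly within coding genes, with no promoter row of any gene, were counted as well. WT0 held 142 such peaks, 19 of them in the 45 genes (13.4%), W10min 121 with 12 (9.92%), W3h 54 with 14 (25.9%) and W24h 51 with 12 (23.5%). HS held 195 and HT0 72, none of them in the 45 genes. Since these are 45 of 27444 coding genes, 0 in the heat lists is near their share of all coding genes.

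Many of the 45 genes, though not all, are known to be heavily transcribed. The same counts were therefore made in lists of other photosynthesis genes and of other genes known for high transcription. Transcript levels were not measured in these samples. Of 33 housekeeping and structural genes of high transcription (elongation factors, actins, tubulins, aquaporins, metallothioneins and others), 12, 11, 8 and 0 had a peak in WT0, W10min, W3h and W24h, 6, 8, 6 and 0 with a gene row, and 5 and 1 had a peak in HS and HT0. Their highest folds were those of GAPC1, 3.19 in HS and 2.70 in W10min. Of 22 genes for cytosolic ribosomal proteins, 1, 4, 0 and 0 had a peak in the same 4 wounding lists and 0 in the heat lists, the highest of them AT3G09630 at 2.09-fold. The shares for the first list, 36.4%, 33.3% and 24.2% in WT0, W10min and W3h, lay above those of all coding genes and below those of the 45 genes. In W24h it held 0 of 33 and the 45 genes 22. The part of transcription in these counts was not tested.

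Genes of other steps of photosynthesis were counted as well. Of 17 other genes for photosystem and electron transport proteins, 5, 8, 3 and 3 had a peak in WT0, W10min, W3h and W24h, 2 in HS and 1 in HT0. With a gene row it was 3, 7, 2 and 3 in the wounding lists, 1 in HS and 0 in HT0. FD1, a minor leaf ferredoxin, was highest at 3.93-fold in HS and 2.50-fold in W10min. DRT112 had 1.79-fold, 2.37-fold, 2.10-fold and 1.90-fold in the wounding lists, with gene rows in each. Of 26 genes of the Calvin cycle and photorespiration, 5, 3, 0 and 0 had a peak in the wounding lists and 0 in either heat list. They were led by FBA2 at 2.43-fold in W10min, and 4 in WT0 and 2 in W10min had a gene row. Of 12 genes of chlorophyll synthesis, 1, 3, 0 and 0 had a peak in the wounding lists, 1 in HS and 0 in HT0, led by GUN5 at 2.23-fold and POR C at 2.16-fold in W10min. Genes for other proteins related to the antenna, light-stress proteins among them, had promoter rows alone. Of these, 2 of 6 had a peak in HS, WT0 and W10min and 1 in W3h, with LIL3:2 at 3.88-fold in HS and 2.84-fold in W10min. Of 5 regulators of photosynthesis genes, 2 had a peak in HT0 and HS and 1 in WT0, with HY5 at 1.87-fold and GLK2 at 1.62-fold in HS.

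**Figure D5:**
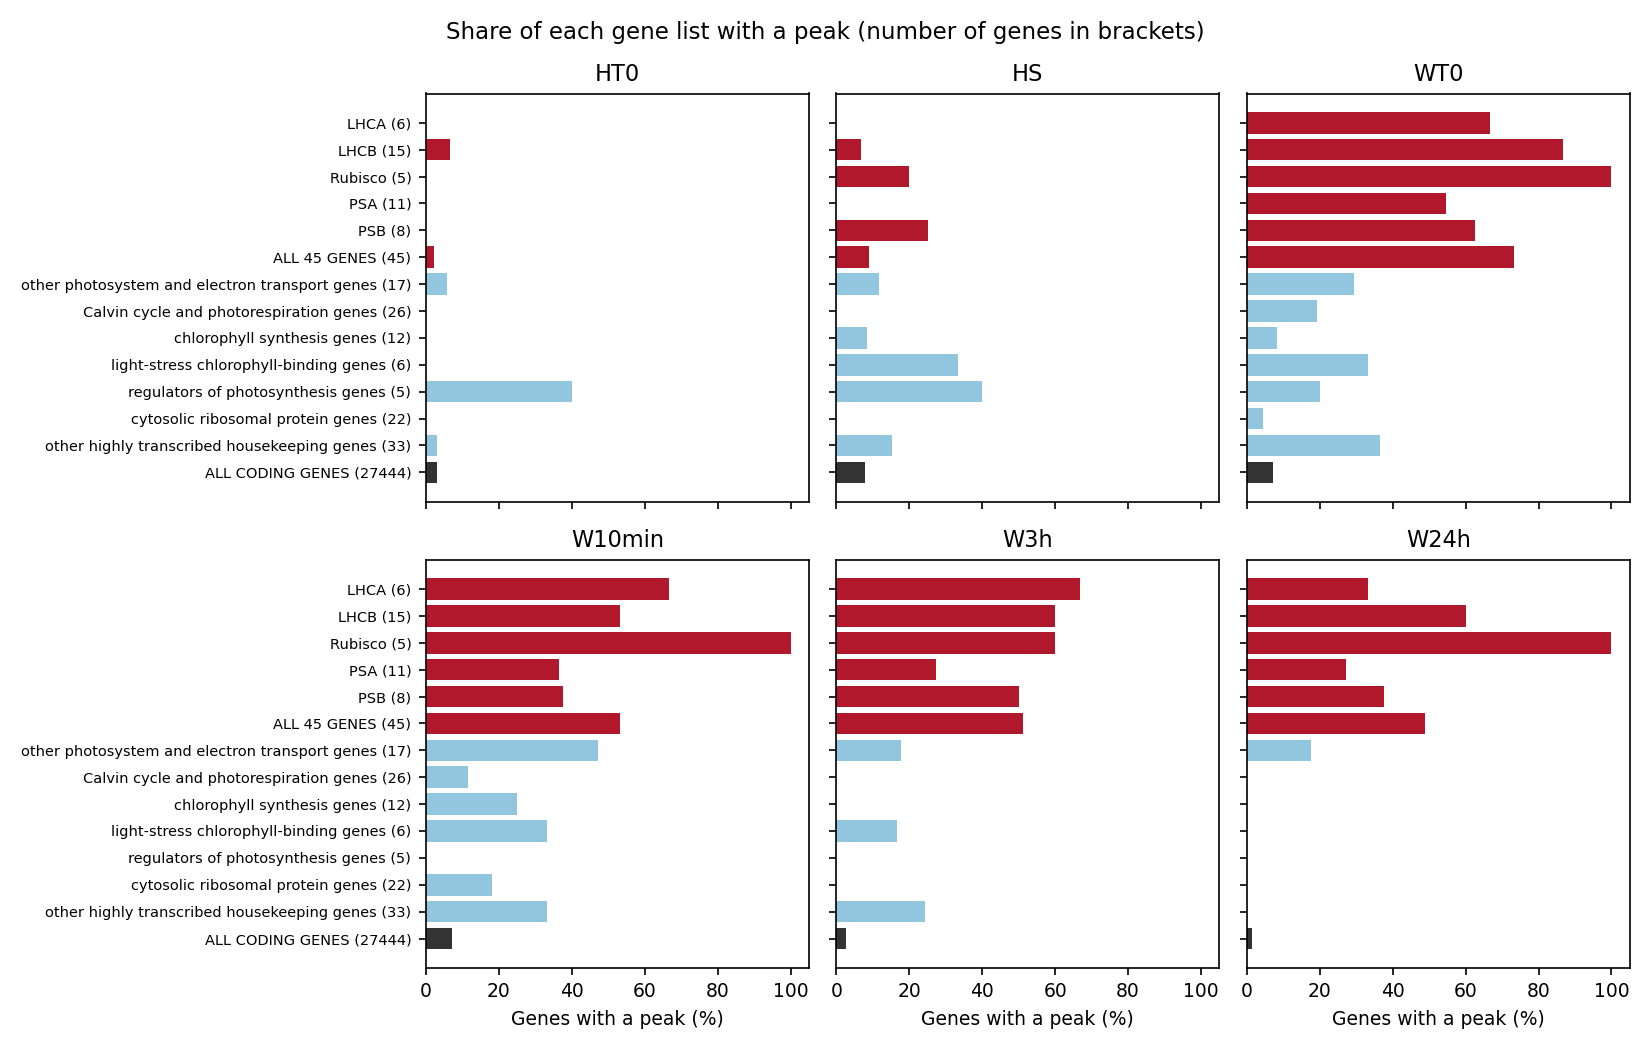
Bars give the percentage of genes with a peak in each of the 6 lists, for the 5 complexes and all 45 genes (red), for the comparison lists (blue) and for all coding genes (black), with the number of genes in brackets. In W24h the bar for all 45 genes reaches 48.9%, that for other photosystem and electron transport genes 17.6% and that for all coding genes 1.46%, and the other comparison lists plotted are at 0; the heat shock genes are not plotted.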

How the data were processed

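The 20 samples are 10 ChIP and 10 input libraries, per the labels, and each condition has 1 list of peaks called on concatenated reads of 50 bases, so no list has a replicate. Bowtie2, SAMtools and MACS2 and the build TAIR10 are named in the submitters' processing notes. Not given in the sources used here are versions, read filters and any limit on q. For each peak the authors deposited a fold enrichment, which is a ratio, and a −log10 q value, both read as such per the file headers. The share of peaks with a q of 1 runs from 7.4% (W10min) to 16.4% (HT0).

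Starts count from 0 (115 HT0 rows equal a reference gene start after adding 1, against 2 before), and 1 was added. The annotation had split peaks into rows; rows of equal fold and q that met, or lay no more than 1 base apart, were joined again, a step tested on simulated data. A percentile is the rank of a peak's fold within its list, 100 being the highest. A gene is gained when the treated list holds a peak for it and its own time 0 list does not, and lost the other way round. RefSeq's gene table (assembly TAIR10.1) supplied names and the 27444 nuclear protein-coding genes of the background, and none of its coordinates are printed; 6 to 41 identifiers per list were not in it.

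The 45 genes and the 8 comparison lists (136 genes) were chosen with earlier results of these data known. The text names genes with a peak in 4 or more lists, the highest in each list, those gained in HS or W10min, those with no peak, and up to 2 per comparison list. Several others of the 45 genes are named beside members of their complex, some with their folds. Alternatives were a q of at most 0.05 or 1e-05, equal numbers of peaks, promoter or gene rows alone, peaks of 1 gene, both time 0 lists as control, ranking by q and rows as deposited. Sequences and motifs were not analysed here. Python 3.11.15, pandas 2.3.3 and matplotlib 3.10.9 were used.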

Additional observations from a re-analysis of the deposited data

How the results depend on the processing

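Of 85 alternatives to 18 results, 43 left the value within 1.5 times and 42 moved it. The count of genes with a gene-row peak in all 4 wounding lists and none in a heat list was chosen after seeing the data, as were its 3 alternatives. It was 13 as reported, 6 at a q of at most 0.05, 2 at 1e-05 and 7 for peaks of 1 gene. Counts of genes with a peak, 1, 4, 33, 24, 23 and 22 in HT0, HS, WT0, W10min, W3h and W24h, moved at a q of at most 0.05 to 0 in HT0 and 13 in W24h. At a q of at most 1e-05 they were 0, 1, 7, 9, 10 and 3. With equal numbers of peaks (509) HT0 had 0, HS 2 and WT0 20. Promoter rows alone gave 16, 9, 5 and 7 in WT0, W10min, W3h and W24h, and gene rows alone 2 in HS. Peaks of 1 gene gave 0, 1, 18, 10, 13 and 11. The 4 genes gained in HS became 1 at a q of at most 1e-05, with peaks of 1 gene and with both time 0 lists as control, and 2 with equal numbers or gene rows alone. The 0 gained after wounding became, in W10min, 2 and 4 at the q limits of 0.05 and 1e-05, 4 with equal numbers and 1 each with promoter rows and gene rows alone. In W3h they became 2, 4 and 7 at those limits and with equal numbers, and 1 with gene rows alone. In W24h they became 1 at a q of at most 0.05, 7 with equal numbers and 1 with gene rows alone. Each of these settings also drops WT0 peaks, so a gene can become gained without a new peak. Under each of these settings the share in the 4 wounding lists stayed above that of all coding genes. Median percentiles moved by less than 1.5 times when ranked by q and in rows as deposited, the latter from 72.4 to 65.8 in HS and from 47.1 to 34 in W24h; no count was made in rows as deposited.

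No paired analysis was possible because each condition has 1 list from concatenated reads, so leaving out a replicate could not be done either. The planned count of heat shock elements in promoters and the similarity of near-identical copies were not run, since they need sequences not used here. Depth per library is unknown beyond the floor of 10 M mapped reads, so a missing peak means that none was called at that depth, not that HSFA1d was absent.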

Other observations

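HY5, a light-signalling factor that regulates photosynthesis genes, carried the highest peak of the whole HT0 list, 3.51-fold with a q of 7.68e-19 and gene rows only. It was named after its values were seen. In HS its highest peak was 1.87-fold with a q of 0.0164, in WT0 1.94-fold with a q of 0.0218, and it had none in W10min, W3h or W24h. GLK2, another regulator of chloroplast genes, had 1.64-fold in HT0 with a q of 0.0901.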
